A study of Mus musculus with 8 samples.

Results

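T-cell receptor beta (TRB) clonotypes were examined in RNA from mononuclear cells of mouse pups aged 1 week. A clonotype was counted as TRB when its best J hit began TRBJ. By this rule 6673 of the 14428 clonotypes in the 8 libraries were TRB (46.25%), and all 6673 also had a TRBV segment as best V hit. No clonotype of another chain had a TRBV as best V hit (0 of the rest).

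The pups were the F1 generation of CD11c-DTR dams mated with BALB/c males. The dams are on a B6 background and express a diphtheria toxin (DT) receptor from the CD11c promoter, so that DT removes dendritic cells (DC) that carry it. Dams received DT (5 ng/g) or saline on embryonic day 13, and fetuses received an intrauterine transfer (IUT) of 5000000 bone marrow mononuclear cells on embryonic day 14. Donor cells came from B6 (CD45.1) mice in mIUT and from BALB/c mice in pIUT. DC control fetuses came from saline-treated dams and DC-depleted fetuses from DT-treated dams, whereas uninjected controls of the study came from dams of either kind. Which dams the sequenced uninjected pups came from was not stated. Cells of several pups were pooled and sorted into trafficked maternal cells by H2K-b and recipient cells by H2K-d, giving 1 library for each origin in each of the 4 treatments. By the paper, the pools held unequal numbers of pups, and the uninjected pool was the largest. F1 cells inherit both haplotypes, B6 donor cells carry H2K-b and BALB/c donor cells carry H2K-d, so these gates need not separate mother, pup and donor fully, and the origin of single clonotypes was not tested. With 1 pooled library in each group, differences below are between libraries.

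A TRB chain is made in the thymus by joining a D to a J segment and then a V segment to the D-J unit. The mouse Trb locus holds a pair of D-J-C clusters: Trbd1 lies before the TRBJ1 segments and Trbc1, and Trbd2 before the TRBJ2 segments and Trbc2. The ends are trimmed before joining, and terminal deoxynucleotidyl transferase (TdT, the product of Dntt) can add bases that no segment encodes. The junction and its flanks form the CDR3, the loop that contacts the peptide on the MHC molecule. Junctions made in the mouse thymus before birth are known to hold few added bases.

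In GRCm39 the locus runs on chromosome 6 from Trbv1 (chr6:40868163-40868819, plus strand) to Trbv31 (chr6:41534627-41535386, minus strand), the V segment that lies beyond Trbc2 in the opposite orientation. The D segments are shown first because a junction can be read only against them. Trbd1 (chr6:41510135-41510146, 12 bases) and Trbd2 (chr6:41519097-41519110, 14 bases) read, 5′ to 3′ on the plus strand of GRCm39:
Trbd1: gggacagggggc
Trbd2: gggactgggggggc
Both are rich in G, so a short stretch of either can be hard to assign.

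The largest TRB clonotype of each library is shown next, because it gives the range from long added stretches to none. In each CDR3 the capitals mark the bases between the end of V and the start of J, which hold D bases and non-templated bases:
maternal uninjected, TRBV12-2 TRBD1 TRBJ1-6: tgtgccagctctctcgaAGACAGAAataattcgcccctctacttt
maternal DC control mIUT, TRBV13-1 TRBD2 TRBJ2-5: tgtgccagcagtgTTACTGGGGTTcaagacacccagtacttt
maternal DC control pIUT, TRBV17 TRBD2 TRBJ2-1: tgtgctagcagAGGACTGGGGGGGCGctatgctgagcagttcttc
maternal DC-depleted pIUT, TRBV12-1 TRBD1 TRBJ1-4: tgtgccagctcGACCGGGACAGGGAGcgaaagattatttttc
recipient uninjected, TRBV17 TRBD2 TRBJ2-7: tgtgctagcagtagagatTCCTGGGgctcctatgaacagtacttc
recipient DC control mIUT, TRBV1 TRBD1 TRBJ1-1: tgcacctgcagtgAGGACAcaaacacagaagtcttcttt
recipient DC control pIUT, TRBV1 TRBD1 TRBJ1-1: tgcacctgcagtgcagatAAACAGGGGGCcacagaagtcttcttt
recipient DC-depleted pIUT, TRBV17 TRBD1 TRBJ2-1: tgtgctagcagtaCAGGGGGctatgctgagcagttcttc
All 8 were in frame without a stop. Of the bases in capitals, 3, 4, 1, 4, 2, 1, 2 and 0, in the order listed, lay outside the D stretch that MiXCR aligned. That stretch need not be identical to the germline D, and in some clonotypes it ran past the end of the D segment. With only D bases identical to the germline D counted as D, 2 bases of the maternal DC control pIUT sequence and 6 of the maternal DC-depleted pIUT sequence lay outside it, and the other 6 numbers stayed as given.

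The libraries differed widely in how many TRB clonotypes they held and in the reads behind each. Clone count is the number of reads that MiXCR assigned to a clonotype, with no molecular identifiers, so intervals below cover counting error only. Among maternal libraries, uninjected pups gave 534 TRB clonotypes, DC control mIUT 14, DC control pIUT 9 and DC-depleted pIUT 427. Among recipient libraries, the numbers were 22, 337, 4101 and 1229 in the same order. The 2 maternal libraries of DC control transfers and the recipient uninjected library were thus the 3 smallest. Their shares are given as counts or with wide intervals. In recipient uninjected, 10 of the 22 had at most 9 reads, and all 10 repeated a sequence of recipient DC control pIUT or a CDR3 of the same library, as described further on.

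TRB made up 12.1% of all clonotypes in the maternal uninjected library (Wilson 95% interval 11.1 to 13.05%) and 77.4% in the maternal DC-depleted pIUT library (73.7 to 80.7%). In recipient libraries the share was 14.9% without injection (10.03 to 21.5%), 50.6% in DC control mIUT (46.8 to 54.4%), 74.7% in DC control pIUT (73.6 to 75.9%) and 40.1% in DC-depleted pIUT (38.4 to 41.9%). The uninjected library had the lowest share in each origin. All clonotypes include those of immunoglobulin chains, so this share also depends on their number. B-cell markers, given further on, differed widely between libraries. The remaining maternal libraries held 28.6% in mIUT and 28.1% in DC control pIUT, from 49 and 32 clonotypes in all. Maternal and recipient means were 36.5 ± 28.3% and 45.1 ± 24.8% (SD, n = 4 libraries each), a difference of -8.55 percentage points that was smaller than the spread between libraries (exact permutation test over the 70 choices of 4 of 8 libraries, two-sided p = 0.629). The smallest p this design allows is 0.0286.

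Reads were shared out among TRB clonotypes in different ways. Among maternal libraries the mean clone count was 29.2 reads without injection, 233 after mIUT and 160 after pIUT with DC control, and 9.995 after pIUT with DC depletion. In recipient libraries it was 305, 6.08, 8.50 and 4.89 in the same order. The largest clonotype held 34.1% of TRB reads in maternal DC control pIUT (492 reads), 23.1% in recipient uninjected (1549 reads) and 15.3% in maternal DC control mIUT (498 reads). In the other 5 libraries it held between 0.146% and 2.28%, so no TRB clonotype dominated there. The 10 largest clonotypes together held 1.299% to 8.31% of TRB reads in these 5 libraries.

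**Figure D1:**
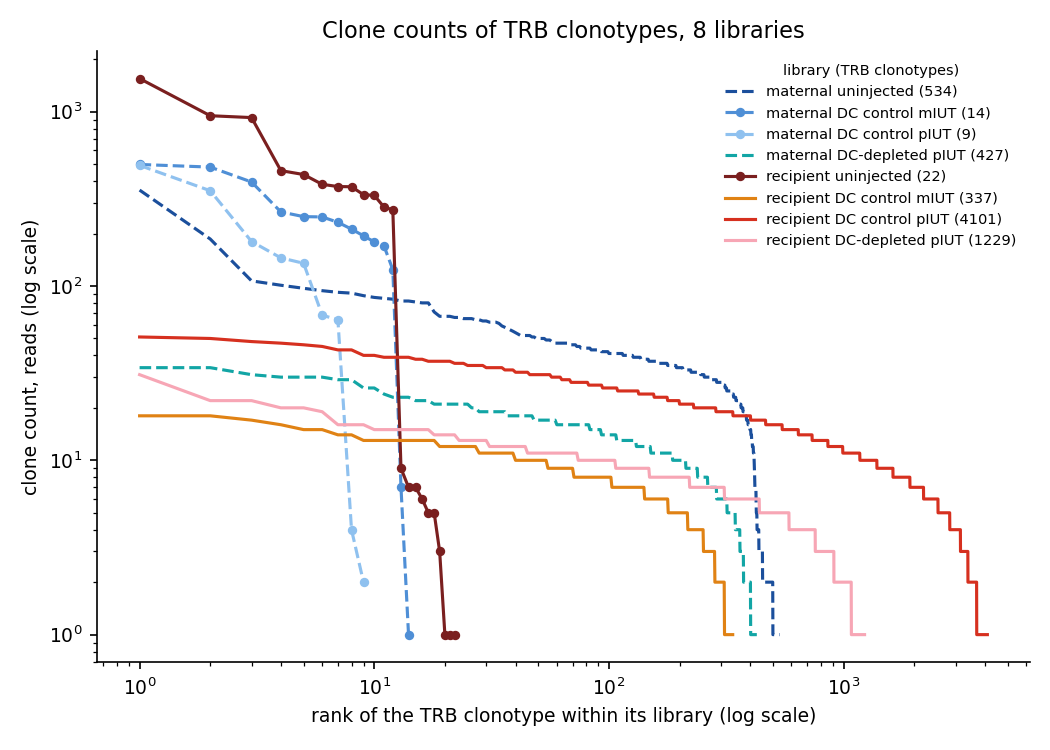
Clone count in reads (log scale) against the rank of each TRB clonotype within its library (log scale), 1 line for each of the 8 libraries, dashed for maternal and solid for recipient. The recipient uninjected line falls from 273 reads at its 12th clonotype to 9 reads at the next, and the 5 libraries with over 100 TRB clonotypes start at 18 to 355 reads and decline slowly.

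Junctions of the libraries differed in their non-templated bases. These were counted as bases between V and D plus bases between D and J, in the 4743 TRB clonotypes with a D hit (71.08%). In 24.1% of these clonotypes the aligned D stretch held at least 1 base not identical to the germline D. Such bases, whether mismatched or past the end of the D, are not included and were not told apart. The number was 0 in 13.7% of such clonotypes in the maternal uninjected library (56 of 409, Wilson 95% interval 10.7 to 17.4%). It was 0 in 54.7% in the maternal DC-depleted pIUT library (156 of 285, 48.9 to 60.4%), an interval well apart from that of the uninjected library of the same origin. Recipient libraries held 77.1% in DC control mIUT (178 of 231, 71.2 to 82.0%), 48.8% in DC control pIUT (1440 of 2951, 47.0 to 50.6%) and 65.3% in DC-depleted pIUT (547 of 838, 62.0 to 68.4%). The maternal DC-depleted pIUT library therefore lay among the recipient libraries by this measure. With only identical D bases counted as D, the shares were lower but in the same order, at 8.31% in maternal uninjected (6.01 to 11.4%), 36.9% in recipient DC control pIUT (35.2 to 38.7%), 40.7% in maternal DC-depleted pIUT (35.2 to 46.5%), 53.6% in recipient DC-depleted pIUT (50.2 to 56.9%) and 57.1% in recipient DC control mIUT (50.7 to 63.4%).

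The small libraries gave counts of 2 of 8 (maternal DC control mIUT), 0 of 8 (maternal DC control pIUT) and 4 of 13 (recipient uninjected). A count of 0 of 8 allows a share of up to 32.4% (Wilson). At the other end of the distribution, 4 or more non-templated bases were found in 37.9% of clonotypes of the maternal uninjected library (155 of 409), 5.61% of maternal DC-depleted pIUT (16 of 285), 2.16% of recipient DC control mIUT (5 of 231), 10.8% of recipient DC control pIUT (319 of 2951) and 6.09% of recipient DC-depleted pIUT (51 of 838). With only identical D bases counted as D, these shares were 46.2%, 9.47%, 4.76%, 16.9% and 10.6% in the same order. Among the 5 larger libraries, maternal uninjected thus had the lowest share of junctions without additions and the highest share of long ones. The small libraries had 2 of 8 (maternal DC control mIUT), 3 of 8 (maternal DC control pIUT) and 0 of 13 (recipient uninjected) with 4 or more. With only identical D bases counted as D, these counts were 3 of 8, 3 of 8 and 3 of 13.

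The mean number of non-templated bases, over clonotypes with a CDR3 of at most 75 bases, was 3.002 ± 2.28 (SD over clonotypes) in the maternal uninjected library, and the maternal DC-depleted pIUT library had 1.11 ± 2.49. Medians over all clonotypes with a D hit were 3 and 0. In maternal DC-depleted pIUT 1 of 285 clonotypes held 8 or more such bases, which raised its SD, against 15 of 409 in maternal uninjected. The mean was 0.437 ± 0.962 in recipient DC control mIUT, 1.28 ± 1.72 in recipient DC control pIUT and 0.797 ± 1.45 in recipient DC-depleted pIUT. The share with 0 changed little with clone count. In the maternal uninjected library it was 12.3% in the clonotypes of lower clone count and 15.1% in those of higher clone count, split at the middle rank. In the maternal DC-depleted pIUT library the corresponding values were 54.2% and 55.2%, and in recipient DC control pIUT 47.2% and 50.4%. Weighting by clone count gave 13.2% in maternal uninjected and 56.3% in maternal DC-depleted pIUT.

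**Figure D2:**
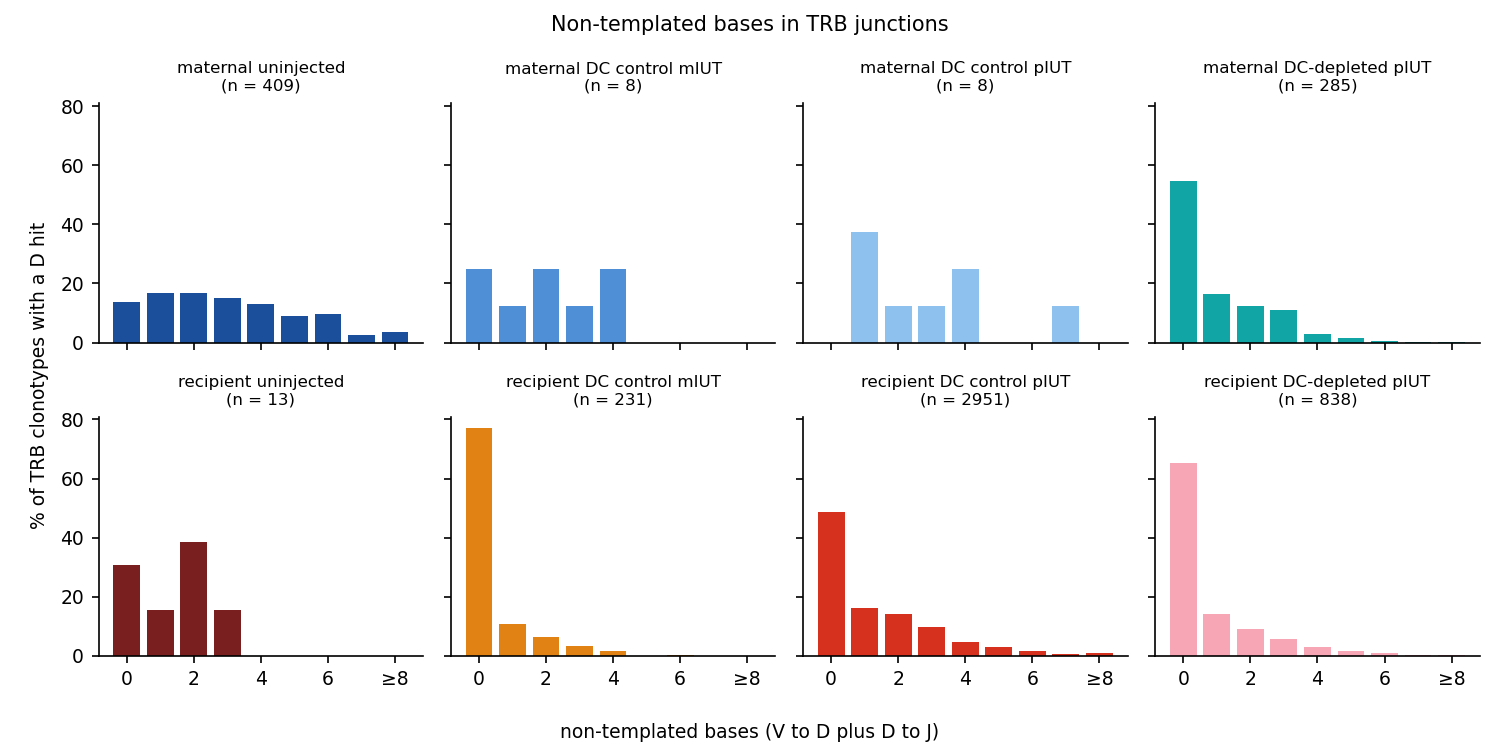
Share of TRB clonotypes with a D hit (vertical axis, percent) by number of non-templated bases (horizontal axis, the last bar holding 8 or more), 1 panel for each library with its number of clonotypes. The bar at 0 stands at 13.7% in maternal uninjected and at 54.7% in maternal DC-depleted pIUT, against 48.8% to 77.1% in the recipient libraries of IUT.

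The share without non-templated bases was lower in the maternal than in the recipient library in 4 of 4 treatments. Its mean was 23.4 ± 23.3% in maternal and 55.5 ± 20.1% in recipient libraries (SD, n = 4 each), a difference of -32.1 percentage points. This difference did not pass the exact permutation test over libraries (two-sided p = 0.114, 0.4 after Benjamini-Hochberg adjustment over 6 measures). The measure was chosen after its values were seen. The order of the 5 larger libraries was the same within each common combination of D and J cluster (TRBD1 with either cluster, TRBD2 with TRBJ2). Among TRBD1 with TRBJ1, the share with 0 was 16.2% in maternal uninjected (18 of 111), 54 of 90 in maternal DC-depleted pIUT, 53.6% in recipient DC control pIUT (442 of 824), 70.1% in recipient DC-depleted pIUT (178 of 254) and 79.5% in recipient DC control mIUT (58 of 73).

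Trimming of the segments differed less. The mean number of bases removed from the 3′ end of V was 2.67 in maternal uninjected, 2.19 in maternal DC-depleted pIUT, 2.21 in recipient DC control mIUT, 2.32 in recipient DC control pIUT and 2.17 in recipient DC-depleted pIUT. From the 5′ end of J, between 2.97 and 3.14 bases were removed in these 5 libraries, and the D stretch kept between 8.04 and 8.26 bases. The whole stretch between V and J was 9.99 bases on average in maternal uninjected, 6.95 in maternal DC-depleted pIUT, 6.65 in recipient DC control mIUT, 8.06 in recipient DC control pIUT and 6.89 in recipient DC-depleted pIUT. Over all 8 libraries the mean was 8.93 ± 2.01 bases in maternal and 7.15 ± 0.625 in recipient libraries, with the maternal library higher in 4 of 4 treatments (difference 1.78 bases, exact permutation test, two-sided p = 0.2, adjusted 0.4).

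CDR3 length followed the same order. In productive clonotypes, which are in frame and without a stop codon, the mean length was 41.7 ± 4.39 bases in maternal uninjected (SD over 482 clonotypes), against 39.6 ± 4.38 bases (392 clonotypes) after pIUT with DC depletion. The mean was 38.9 ± 4.43 in recipient DC control mIUT (318), 39.9 ± 4.59 in recipient DC control pIUT (3731) and 39.3 ± 4.30 in recipient DC-depleted pIUT (1172). The most common length was 42 bases in maternal uninjected (146 clonotypes, 30.3%) and in recipient DC control pIUT (992, 26.6%), and 39 bases in the remaining recipient libraries of IUT (27.0% in DC control mIUT and 28.4% in DC-depleted pIUT). In maternal DC-depleted pIUT, 39 and 42 bases tied at 98 clonotypes each (25.0%). CDR3s of 45 bases or more made up 33.2% of productive clonotypes in maternal uninjected and 13.5% to 20.2% in the other 4 of these libraries.

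Over all 8 libraries, in-frame clonotypes averaged 40.7 ± 1.60 bases in maternal and 39.2 ± 0.611 in recipient libraries. The maternal library was longer in 4 of 4 treatments, by 1.46 bases on average, which did not pass the exact permutation test (two-sided p = 0.171, adjusted 0.4). The small libraries gave means of 39 bases (13 clonotypes, maternal DC control mIUT), 42.3 (9, maternal DC control pIUT) and 38.6 (22, recipient uninjected).

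**Figure D3:**
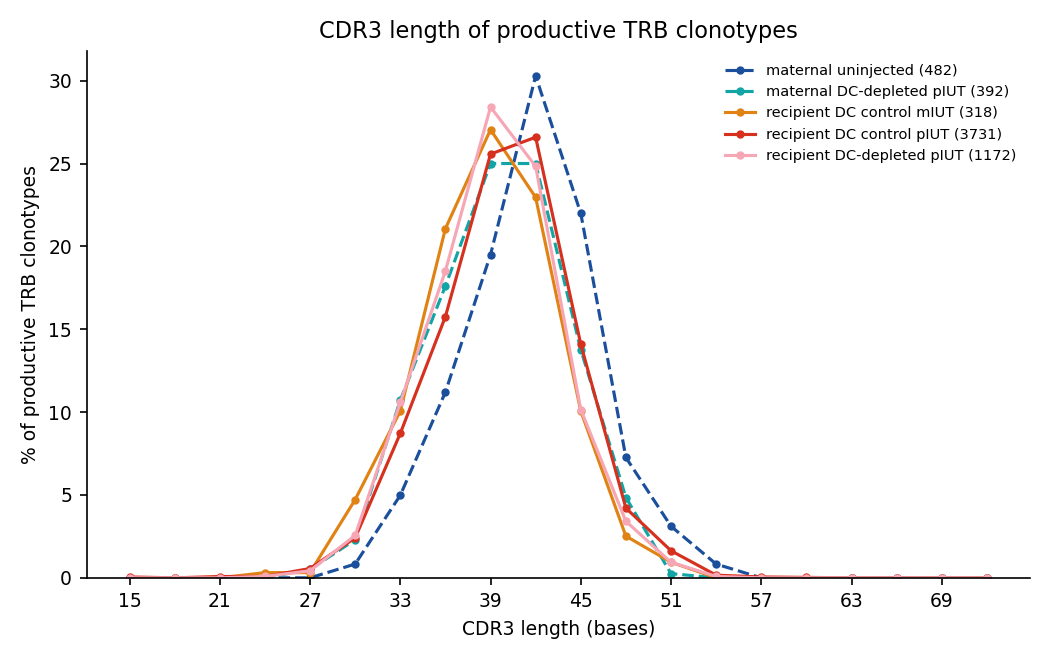
Share of productive TRB clonotypes (vertical axis, percent) by CDR3 length in bases (horizontal axis), for the 5 libraries with over 100 TRB clonotypes, dashed for maternal and solid for recipient. The maternal uninjected line peaks at 42 bases with 30.3% and lies above the others at 45 bases, and the maternal DC-depleted pIUT line is flat from 39 to 42 bases at 25.0%.

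The reading frame was kept in most clonotypes. Of the 6673 TRB clonotypes, 6165 were in frame, 508 were out of frame and 26 in-frame ones held a stop codon, so that 6139 were productive. The productive share was 90.3% in maternal uninjected (Wilson 95% interval 87.5 to 92.5%), 91.8% in maternal DC-depleted pIUT (88.8 to 94.0%), 94.4% in recipient DC control mIUT (91.4 to 96.4%), 91.0% in recipient DC control pIUT (90.1 to 91.8%) and 95.4% in recipient DC-depleted pIUT (94.0 to 96.4%). The recipient DC-depleted pIUT interval lay above that of recipient DC control pIUT. In the small libraries 13 of 14 (maternal DC control mIUT), 9 of 9 (maternal DC control pIUT) and 22 of 22 (recipient uninjected) were productive. Maternal and recipient means were 93.7 ± 4.31% and 95.2 ± 3.72% (n = 4 each, exact permutation test, two-sided p = 0.6).

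Clonotypes that were not productive carried fewer reads. Their median clone count was 3 against 31 for productive clonotypes in maternal uninjected, 3 against 10 in maternal DC-depleted pIUT, 4 against 6 in recipient DC control mIUT, 3 against 7 in recipient DC control pIUT and 3 against 4 in recipient DC-depleted pIUT. They held 3.38% to 4.78% of TRB reads in these 5 libraries.

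Productive shares also differed between V segments. TRBV31, the inverted segment, was productive in 83.0% of its 530 clonotypes (79.6 to 86.0%), against 92.8% of clonotypes of the other segments. It supplied 86 of the 508 out-of-frame clonotypes. Its productive share was below that of the other segments within each of the 5 larger libraries, at 84.4% against 90.8% in maternal uninjected, 24 of 32 clonotypes against 93.2% in maternal DC-depleted pIUT, 78.6% against 95.8% in recipient DC control mIUT, 82.9% against 91.7% in recipient DC control pIUT and 88.0% against 95.9% in recipient DC-depleted pIUT. TRBV24, which GENCODE lists as a pseudogene, was productive in 9 of 27 clonotypes and out of frame in the other 18. TRBV4 and TRBV24 were singled out after their values were seen. TRBV4 was productive in 84.1% of 201 clonotypes, with 117 of 141 productive in recipient DC control pIUT and 15 of 15 in maternal uninjected.

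Of 13 CDR3s longer than 75 bases, 12 were in recipient DC control pIUT and 1 in maternal uninjected. They measured 133 to 252 bases, with at most 6 reads each, whereas the longest other CDR3 had 71 bases. In all 13, the last 109 to 223 bases matched GRCm39 without a break. The match held part or all of the J segment upstream, the sequence between the segments and the start of the J that MiXCR had assigned. The example below (TRBV13-2 with TRBJ1-2, 4 reads, recipient DC control pIUT) shows what such a CDR3 holds, with the 153 bases that match chr6:41510802-41510954 (plus strand) in capitals. That stretch starts in Trbj1-1 (chr6:41510798-41510845) and ends in Trbj1-2 (chr6:41510935-41510982):
TRBV13-2 TRBJ1-2: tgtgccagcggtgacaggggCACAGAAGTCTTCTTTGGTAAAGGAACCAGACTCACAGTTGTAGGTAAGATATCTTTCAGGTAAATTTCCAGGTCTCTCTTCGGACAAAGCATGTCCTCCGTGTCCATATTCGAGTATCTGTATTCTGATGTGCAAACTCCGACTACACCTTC
These 13 CDR3s spanned 2 neighbouring J segments as the genome holds them, and they are counted under the downstream J in all numbers here. All were unproductive. The sole TRBJ2-6 clonotype, of a J segment listed as a pseudogene, was among them.

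Of the 14 Trbj segments that GENCODE annotates, 12 were detected in all 5 larger libraries, TRBJ2-6 had the 1 clonotype described above and TRBJ1-7 (chr6:41512576-41512621) had none. TRBJ2-7, the last J before Trbc2, led with 1160 clonotypes, followed by TRBJ2-5 (807), TRBJ2-1 (802), TRBJ2-4 (687), TRBJ2-3 (598), TRBJ1-1 (553), TRBJ1-2 (465), TRBJ1-4 (425), TRBJ1-3 (360), TRBJ2-2 (351), TRBJ1-6 (258) and TRBJ1-5 (206). In each of the 5 larger libraries, TRBJ2-7 took 14.5% to 18.7% of TRB clonotypes (mean 16.9 ± 1.62%, SD over libraries). It was first in each of them except maternal uninjected, where TRBJ2-5 led with 96 of 534 clonotypes.

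The range over the 5 larger libraries, in percentage points, was widest for TRBJ2-5. Its share was 17.98% in maternal uninjected (Wilson 95% interval 14.95 to 21.5%), 12.4% in maternal DC-depleted pIUT (9.62 to 15.9%), 8.31% in recipient DC control mIUT (5.81 to 11.7%), 11.9% in recipient DC control pIUT (10.9 to 12.9%) and 10.9% in recipient DC-depleted pIUT (9.28 to 12.8%). The maternal uninjected interval lay above all 3 recipient intervals and overlapped that of maternal DC-depleted pIUT. TRBJ1-2 was highest in recipient DC control mIUT, at 11.6% (8.58 to 15.4%) against 5.24% in maternal uninjected (3.65 to 7.47%) and 6.85% in recipient DC control pIUT (6.12 to 7.67%). TRBJ1-3 was highest in maternal DC-depleted pIUT, at 8.43% (6.15 to 11.5%) against 3.56% in recipient DC control mIUT (2.05 to 6.12%) and 4.72% in recipient DC-depleted pIUT (3.67 to 6.05%). TRBJ1-6 was higher in recipient DC-depleted pIUT, at 5.61% (4.46 to 7.05%), than in recipient DC control mIUT, at 2.08% (1.01 to 4.22%), and recipient DC control pIUT, at 3.63% (3.10 to 4.25%). For the other 9 J segments the intervals of every pair of these 5 libraries overlapped.

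**Figure D4:**
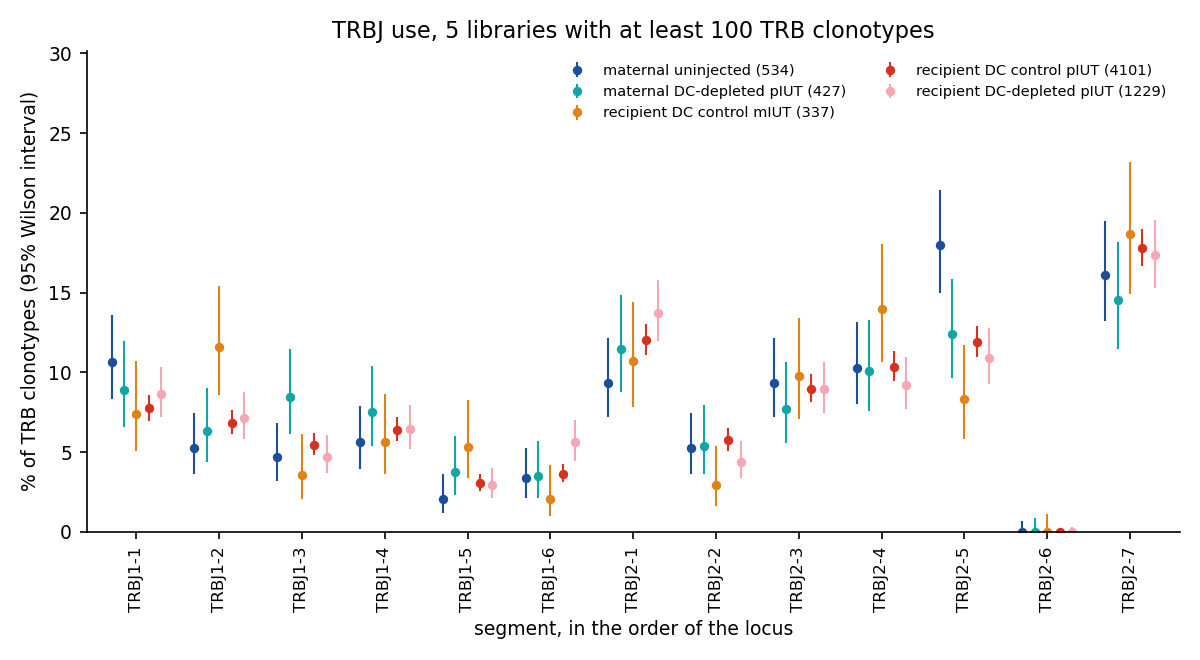
Share of TRB clonotypes (vertical axis, percent, with Wilson 95% intervals) for each TRBJ segment in the order of the locus, in the 5 libraries with at least 100 TRB clonotypes. TRBJ2-7 lies between 14.5% and 18.7% in every library, and the maternal uninjected point stands highest at TRBJ2-5 with 17.98%.

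The TRBJ2 cluster supplied more clonotypes than the TRBJ1 cluster in the 5 larger libraries, at 68.4% in maternal uninjected (Wilson 95% interval 64.3 to 72.2%), 61.6% in maternal DC-depleted pIUT (56.9 to 66.1%), 64.4% in recipient DC control mIUT (59.1 to 69.3%), 66.8% in recipient DC control pIUT (65.4 to 68.3%) and 64.5% in recipient DC-depleted pIUT (61.8 to 67.1%). The small libraries gave 9 of 14 (maternal DC control mIUT), 7 of 9 (maternal DC control pIUT) and 11 of 22 (recipient uninjected). Maternal and recipient means were 68.0 ± 7.08% and 61.4 ± 7.71% (n = 4 each), a difference smaller than the spread between libraries (exact permutation test, two-sided p = 0.371, adjusted 0.556).

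D hits kept to the order of the locus. TRBD1, which lies before both J clusters, was joined to TRBJ1 in 1358 clonotypes and to TRBJ2 in 1386. TRBD2, which lies beyond the TRBJ1 cluster, was joined to TRBJ2 in 1964 clonotypes and assigned with TRBJ1 in 35, or 1.75% of its hits. In these 35 the median D stretch was 6 bases, and 21 had only 5 or 6 bases, against a median of 9 bases in TRBD2 with TRBJ2. The constant segment was not informative: of 6427 TRB clonotypes with a C hit, 97.6% listed both TRBC1 and TRBC2, which have nearly the same first exon, and TRBC2 was named first in 1773 clonotypes with a TRBJ1.

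Of the 35 Trbv segments that GENCODE annotates, 22 are listed as functional and 13 as pseudogenes. All 22 functional ones and 5 pseudogenes were found among the TRB clonotypes. The 5 most used were TRBV13-2 (612 clonotypes), TRBV19 (535), TRBV31 (530), TRBV16 (509) and TRBV5 (492), together 40.1% of TRB clonotypes. The rarest were TRBV8 (2), TRBV18 (3) and TRBV22 (3), all pseudogenes with at most 5 reads in any clonotype. TRBV13-2 took 7.42% to 10.49% in the 5 larger libraries, TRBV31 6.75% to 8.43%, TRBV19 6.92% to 8.90% and TRBV16 5.93% to 9.28%, with overlapping intervals throughout.

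TRBV5 was the exception among the leading segments. It was found in 13 of 534 clonotypes in maternal uninjected (2.43%, Wilson 95% interval 1.43 to 4.12%) and in 43 of 427 in maternal DC-depleted pIUT (10.1%, 7.56 to 13.3%), where it was the leading V. Recipient libraries gave 20 of 337 in DC control mIUT (5.93%, 3.87 to 8.99%), 300 of 4101 in DC control pIUT (7.32%, 6.56 to 8.15%) and 111 of 1229 in DC-depleted pIUT (9.03%, 7.55 to 10.8%). Among the 5 larger libraries, the maternal uninjected interval lay below those of the others except recipient DC control mIUT. In the small libraries TRBV5 had 3 of 9 clonotypes in maternal DC control pIUT, 2 of 22 in recipient uninjected and 0 of 14 in maternal DC control mIUT.

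Intervals of some libraries also lay apart for TRBV4, TRBV13-3, TRBV14, TRBV15, TRBV20 and TRBV25, which were named after their values were seen. TRBV15 took 1.69% in maternal uninjected (0.889 to 3.17%) and 6.23% in recipient DC control mIUT (4.11 to 9.34%), 4.34% in recipient DC control pIUT (3.76 to 5.01%) and 4.39% in recipient DC-depleted pIUT (3.38 to 5.69%), with 2.81% in maternal DC-depleted pIUT (1.61 to 4.85%). TRBV14 took 2.62% in maternal uninjected (1.57 to 4.35%) and 2.93% in recipient DC control pIUT (2.45 to 3.49%), but 6.32% in maternal DC-depleted pIUT (4.38 to 9.04%) and 5.21% in recipient DC-depleted pIUT (4.10 to 6.60%). Recipient DC control mIUT, at 4.45% (2.72 to 7.21%), overlapped all 4 of these libraries for TRBV14. TRBV13-3 was highest in maternal uninjected, at 6.93% (5.07 to 9.40%) against 4.15% in recipient DC control pIUT (3.58 to 4.80%). Between recipient DC control pIUT and recipient DC-depleted pIUT, TRBV4 was higher in the former (3.44% and 1.71%) and TRBV20 in the latter (3.93% and 5.86%). TRBV25, a pseudogene, had 4 clonotypes in maternal uninjected and 3 in recipient DC control pIUT, with at most 3 reads each.

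**Figure D5:**
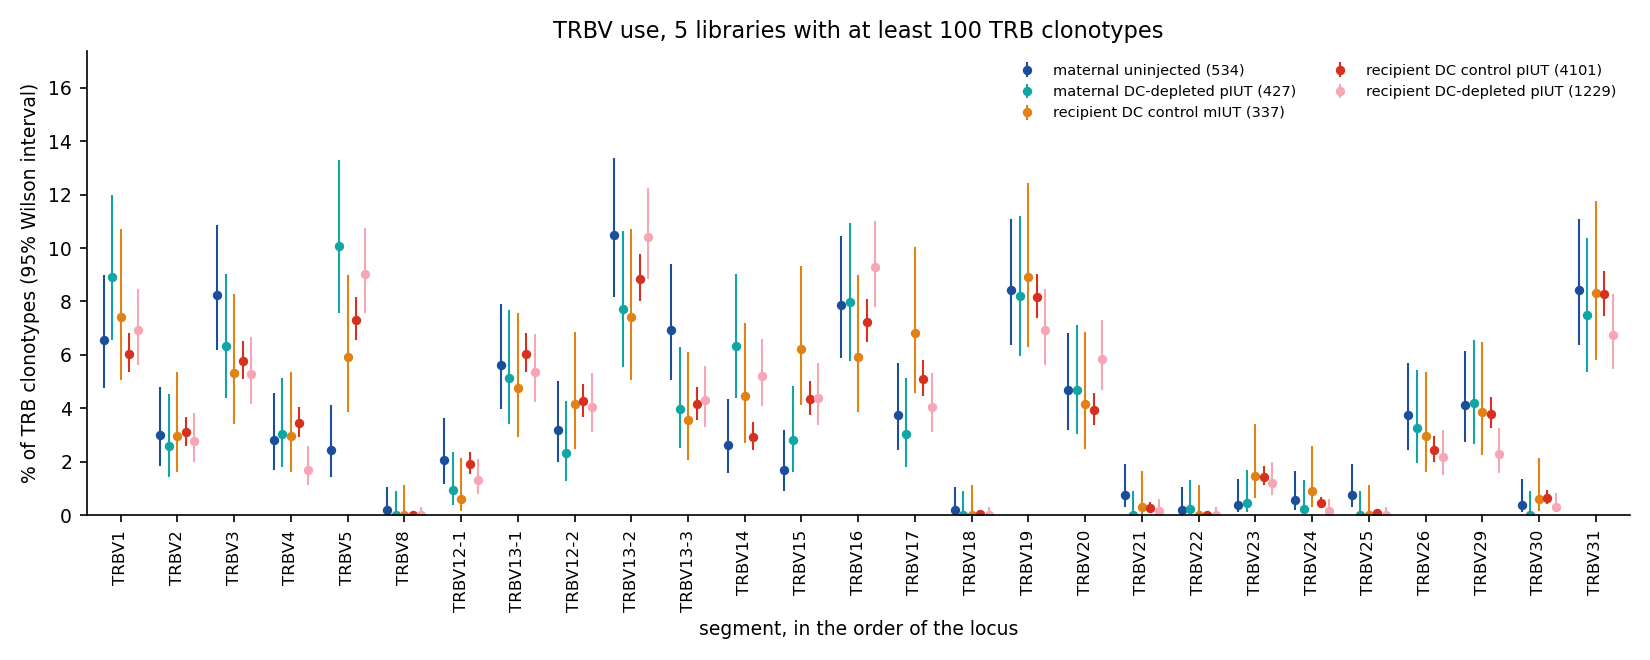
Share of TRB clonotypes (vertical axis, percent, with Wilson 95% intervals) for each TRBV segment in the order of the locus, in the 5 libraries with at least 100 TRB clonotypes. At TRBV5 the maternal uninjected point lies at 2.43% and the maternal DC-depleted pIUT point at 10.1%, while at TRBV13-2 the 5 points lie between 7.42% and 10.49%.

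Counting reads in place of clonotypes moved the mean share of a segment over the 5 larger libraries by less than its SD over libraries in 39 of 40 segments. The exception was TRBV19 (8.12 ± 0.735% of clonotypes, 7.38% of reads). In the small libraries a few clonotypes set the order. TRBV19 led in maternal DC control mIUT (5 of 14 clonotypes, 33.0% of TRB reads), TRBV13-2 led by reads in maternal DC control pIUT (36.9%) although TRBV5 had more clonotypes, and TRBV17 led by reads in recipient uninjected (28.8%) with 2 of 22 clonotypes.

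The gene table of the same RNA gave a second reading of V use. Estimated counts of Trbv genes and numbers of clonotypes with the same V ranked the segments alike, with Spearman's rho of 0.927 in maternal uninjected (27 segments), 0.881 in maternal DC-depleted pIUT (22), 0.854 in recipient DC control mIUT (23), 0.939 in recipient DC control pIUT (26) and 0.920 in recipient DC-depleted pIUT (23). These values describe segments within a library, which share its RNA and are not independent replicates. Trbv5 took 1.89% of Trbv counts in maternal uninjected (114 counts) and 7.27% in maternal DC-depleted pIUT (109 counts). In recipient libraries of IUT it took 4.56% (36 counts, DC control mIUT), 4.60% (593, DC control pIUT) and 5.29% (133, DC-depleted pIUT). The low share of Trbv5 in maternal uninjected was thus seen in both readings.

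V and J segments were paired broadly. Of the 351 pairs that 27 V and 13 J segments allow, 271 were seen in recipient DC control pIUT, 230 in recipient DC-depleted pIUT, 180 in maternal uninjected, 173 in maternal DC-depleted pIUT and 152 in recipient DC control mIUT, in the order of their numbers of clonotypes. TRBV13-2 with TRBJ2-7 was the leading pair of recipient DC control pIUT (64 clonotypes, 64.6 from the product of both shares) and of recipient DC-depleted pIUT (21 clonotypes, 22.2 from the product), and it was among the leading pairs of recipient DC control mIUT with 8 clonotypes (4.67 from the product). It had 4 clonotypes in maternal uninjected, where the product gave 9.02. TRBV13-2 with TRBJ2-5 led there instead, with 13 clonotypes (10.1 from the product).

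In recipient DC control pIUT, 162 pairs had a product of at least 10 clonotypes. Observed numbers were within 1.5-fold of the product in 143 of them, with a median ratio of 1.02. The lowest was TRBV29 with TRBJ1-1 (4 clonotypes, 12.1 from the product, ratio 0.331) and the highest TRBV17 with TRBJ2-2 (21 clonotypes, 12.03 from the product, ratio 1.75). Pairing thus lay close to independent use for most pairs, and no single pair was tested. The leading pairs of maternal DC-depleted pIUT, at 9 clonotypes each, were TRBV14 with TRBJ2-5 (3.35 from the product), TRBV16 with TRBJ2-7 (4.94) and TRBV3 with TRBJ2-1 (3.10).

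Few TRB sequences recurred between libraries. Of 6573 distinct sequences, defined by CDR3 nucleotides, V and J, 95 were found in more than 1 library, 90 of them in 2 and 5 in 3. These 95 sequences made up 195 clonotypes. A D hit was missing in 92 of the 195 (47.2%), against 28.4% of clonotypes found in a single library, so their non-templated bases were not counted. Of the 103 with a D hit, 97 had 0 non-templated bases (94.2%), against 49.3% of the 4640 with a D hit found in a single library. With only identical D bases counted as D, the shares were 84.5% and 37.5%. The mean CDR3 length of the 195 was 37.5 bases against 40.2 bases. The 5 sequences found in 3 libraries are shown because they recurred most, with capitals for the bases between V and J as above:
TRBV31 TRBJ2-5, 28, 13 and 2 reads in maternal uninjected, recipient DC control pIUT and recipient DC-depleted pIUT: tgtgcctggagtcTGgacacccagtacttt
TRBV13-1 TRBJ2-4, 7, 28 and 6 reads in maternal DC-depleted pIUT, recipient DC control pIUT and recipient DC-depleted pIUT: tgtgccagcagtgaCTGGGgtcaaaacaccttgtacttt
TRBV13-1 TRBJ2-1, 16, 5 and 5 reads in the same libraries: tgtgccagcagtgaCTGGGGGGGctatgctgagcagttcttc
TRBV5 TRBJ1-5, 7, 14 and 4 reads in recipient DC control mIUT, recipient DC control pIUT and recipient DC-depleted pIUT: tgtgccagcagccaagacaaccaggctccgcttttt
TRBV19 TRBJ2-4, 3, 3 and 1 reads in the same libraries: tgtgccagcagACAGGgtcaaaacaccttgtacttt
In the TRBV5 sequence V and J meet with no base between them, and their ends overlap by 1 base. In the others at most 9 bases lie between V and J, and those with a D hit hold none outside the aligned D stretch.

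Recipient DC control pIUT and recipient DC-depleted pIUT, the libraries with the most clonotypes, shared 50 sequences (1.22% of the former and 4.07% of the latter). Recipient DC control mIUT shared 8 with the former (2.37% of its own clonotypes) and 11 with the latter (3.26%). Maternal DC-depleted pIUT shared 14 sequences with recipient DC control pIUT (3.28% of its own), 8 with recipient DC-depleted pIUT (1.87%) and 2 with recipient DC control mIUT (0.468%). Maternal uninjected, with more clonotypes than maternal DC-depleted pIUT, shared 2 with recipient DC control pIUT (0.375% of its own) and 1 with recipient DC-depleted pIUT (0.187%). The 2 maternal DC control libraries shared 0 sequences with any library, out of 14 and 9 clonotypes, and the 2 larger maternal libraries shared 0 with each other.

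The recipient uninjected library stood apart. Of its 22 TRB clonotypes, 12 had 273 to 1549 reads and held 99.3% of its TRB reads, and the other 10 had 1 to 9 reads. Of those 10, 7 were also found in recipient DC control pIUT, and the other 3 repeated the CDR3 of a larger clonotype of the same library under another V. Whether these 10 came from cells of this library, from reads of another library or from assignment was not tested. Among the 12 larger clonotypes, 7 had a TRBJ2, 12 were productive and 2 of the 8 with a D hit had 0 non-templated bases. Without the other 10, TRB made up 8.70% of all clonotypes of this library, and 88 sequences were found in more than 1 library. Of the 12 larger ones, 2 recurred elsewhere, at 2 and 8 reads. An example of a repeated CDR3 was the sequence with the second-highest clone count, assigned to TRBV13-2 with 948 reads and to TRBV3 with 6 reads. Only the point at which V ends differs between the assignments:
TRBV13-2 TRBJ1-3, 948 reads: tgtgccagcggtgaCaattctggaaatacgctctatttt
TRBV3 TRBJ1-3, 6 reads: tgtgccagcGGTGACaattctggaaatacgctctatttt
In the maternal DC control libraries, 12 of 14 (mIUT) and 5 of 9 (pIUT) clonotypes had over 100 reads, and none of them recurred in another library.

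Genes of the receptor and of its rearrangement were read from the gene table, in estimated counts per 1000000 of the library total (CPM), with totals of 38543494 to 47965158 counts. Fewer T cells and less RNA per cell cannot be told apart in these pooled samples. Trbc1 and Trbc2 together, the constant genes of the beta chain, had 844, 188, 89.0 and 338 CPM in the maternal libraries, in the order uninjected, DC control mIUT, DC control pIUT and DC-depleted pIUT. Recipient libraries had 327, 151, 2879 and 831 CPM in the same order. The library with the most TRB clonotypes was also the highest here, but recipient uninjected, with 22 clonotypes, was close to maternal DC-depleted pIUT, with 427.

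Trac, the constant gene of the alpha chain, was lowest in maternal DC-depleted pIUT, although Trbc was not. It had 296 CPM in maternal uninjected and 3.82 CPM (147 counts) in maternal DC-depleted pIUT, where the ratio of Trbc to Trac counts was 88.5, against 2.85 in maternal uninjected, 5.74 and 5.48 in the maternal DC control libraries (mIUT and pIUT) and 5.19 to 25.0 in the recipient libraries. The ratio compares counts that are not scaled for gene length. Clonotypes pointed the same way, with 12 TRA against 427 TRB in maternal DC-depleted pIUT and 285 TRA against 534 TRB in maternal uninjected. TRA was also below TRB in every other library. Maternal DC control mIUT held 2 TRA against 14 TRB and maternal DC control pIUT 8 against 9. Recipient uninjected held 9 against 22 and recipient DC control mIUT 57 against 337. Recipient DC control pIUT held 463 against 4101 and recipient DC-depleted pIUT 271 against 1229. In developing thymocytes the beta chain is rearranged before the alpha chain and pairs first with pre-T alpha, the product of Ptcra. Ptcra was at 0 counts in maternal uninjected and at 12.01 CPM in maternal DC-depleted pIUT (463 counts). It had 10.1 CPM in maternal DC control mIUT (448 counts), 0.38 in maternal DC control pIUT (15 counts), 0.334 in recipient uninjected (16 counts), 2.72 in recipient DC control mIUT (113), 80.6 in recipient DC control pIUT (3223) and 18.7 in recipient DC-depleted pIUT (773).

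Rag1 and Rag2, which cut the segments, were both at 0 counts in maternal uninjected and recipient uninjected. Rag1 had 108 counts in maternal DC-depleted pIUT, 508 in recipient DC control mIUT, 2166 in recipient DC control pIUT and 431 in recipient DC-depleted pIUT, and Rag2 had 86, 156, 1328 and 547. In the maternal DC control libraries Rag1 had 13 counts in mIUT and 218 in pIUT, and Rag2 244 and 0. Dntt, which encodes TdT, had 6.59 CPM in maternal uninjected (254 counts), 7.16 in maternal DC-depleted pIUT (276), 2.40 in recipient DC control mIUT (100), 113 in recipient DC control pIUT (4527) and 10.9 in recipient DC-depleted pIUT (453). It was at 0 in both maternal DC control libraries and at 11 counts in recipient uninjected. Rag and Dntt are also used by developing B cells, so these counts do not belong to T cells alone, and their part in the differences between junctions was not tested.

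Genes of end joining were detected unevenly. Xrcc6, which encodes a subunit of Ku, had 830 to 9234 counts, whereas Lig4, the ligase, had 0 counts in maternal DC control mIUT and recipient uninjected and 94 to 995 in the other 6 libraries. Prkdc, a kinase that Ku recruits, had 0 to 329 counts, Dclre1c, the nuclease Artemis, 0 to 505, Xrcc5, the other subunit of Ku, 0 to 1924, and Xrcc4, the partner of the ligase, 268 to 1190. Polm and Poll, polymerases that fill gaps at the ends, had 0 to 2147 and 0 to 825 counts.

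The CD3 genes, whose products carry the receptor at the surface, were detected in all 8 libraries for Cd3d (527 to 17412 counts), Cd3e (761 to 17251) and Cd3g (1211 to 25692), whereas Cd247, which encodes the zeta chain, had 1 count in maternal DC control pIUT and 224 to 4704 counts in the others. Lck, the kinase bound to the coreceptors, had 1667 to 77037 counts, and Zap70, which it activates, 0 to 4477. Cd4 was at 0 counts in maternal DC control pIUT and maternal DC-depleted pIUT and at 334 to 3714 elsewhere, while Cd8a had 642 to 12116 and Cd8b1 747 to 10201 counts. The maternal DC-depleted pIUT library therefore had 941 counts of Cd8a and 0 of Cd4.

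As a check of content, all 12 T-cell markers exceeded 3 counts in 5 libraries, 11 did so in recipient uninjected (Zap70 at 0) and 9 in each maternal DC control library (Cd5 and Cd28 at 0). Their summed level was 252 to 3561 CPM in maternal and 598 to 6941 CPM in recipient libraries. B-cell markers summed to 13222 CPM in maternal uninjected and 53.2 CPM in maternal DC-depleted pIUT, with 5 to 6 of the 6 genes above 3 counts in 7 libraries and 4 in maternal DC control mIUT; in recipient libraries they summed to 122 to 2472 CPM. Gamma-delta markers (5 genes) summed to 0 to 57.7 CPM in maternal and 37.6 to 443 CPM in recipient libraries. The list of rearranging thymocytes (Rag1, Rag2, Ptcra and Dntt) summed to 5.90 to 24.2 CPM in maternal and 0.563 to 281 CPM in recipient libraries. Erythroid markers (4 genes) summed to 92.1 CPM in recipient DC control mIUT and 11838 to 117759 CPM elsewhere, and granulocyte markers (4 genes) to 1572 to 97656 CPM. These cell types moved with the libraries, and their part in the differences of TRB clonotypes was not tested.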

How the data were processed

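Data were analysed from 8 clonotype tables and 1 gene table. The authors made the clonotype tables with MiXCR (random fragments, mouse RNA, version not given in the sources used here) and deposited read counts per clonotype (clone count). Estimated counts per gene, deposited without normalization, were made by the authors with salmon in the nf-core pipeline on GRCm39, while their methods name featureCounts. Each of its 8 sample columns was used. Estimated counts were rounded for printing, and CPM is the count per 1000000 of the library total.

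V, D, J and C are the first hits of MiXCR, and segment ends are its reference points. A productive CDR3 has a length that is a multiple of 3 and no stop. Gene names and positions came from GENCODE M39 on GRCm39 (97.99% of 52784 identifiers matched). Shares have Wilson 95% intervals; libraries under 20 TRB clonotypes are given by counts, and V-J pairs only from 100. Libraries held 3749 to 348684 receptor reads, of which 1442 to 34875 were TRB. Maternal and recipient libraries were compared by two-sided exact permutation, with Benjamini-Hochberg adjustment over 6 measures, in Python 3.11.15 with scipy 1.17.1; the test was checked on simulated data. Nothing in the labels gives separate cultures, so p-values measure the spread between pooled libraries that also differ in treatment.

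Named were all TRBJ, the 5 most used, 3 rarest and leading TRBV of each library, the largest clonotype of each library, sequences in most libraries and 24 genes of the receptor and its rearrangement. The members, lists and tests were chosen with earlier results of these data known. Alternatives were a clone count of at least 2, weighting by clone count, merging by amino acid sequence, productive clonotypes, leaving out libraries, and, added after seeing the data, a CDR3 of at most 75 bases, D bases counted only where identical to the germline D, and leaving out shared clonotypes or those under 100 reads in recipient uninjected.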

Additional observations from a re-analysis of the deposited data

Results flagged for a closer look

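The TRBJ2 share of recipient uninjected, 50.0% (11 of 22 clonotypes), lay far from the 64.4% to 66.8% of the other 3 recipient libraries. Chance flags about 1 in 20 such groups, and each of 6 measures was searched in each origin. The Wilson 95% interval of the share is 30.7 to 69.3%. By reads its share was 62.2%, and among its 12 clonotypes of at least 100 reads 7 had a TRBJ2.

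The productive share differed from that of the uninjected library in opposite directions in the 2 origins. The 3 maternal libraries of IUT were above maternal uninjected, by 4.62 percentage points on average, and the 3 recipient libraries of IUT were below recipient uninjected, by -6.43 percentage points on average. The difference between origins was not tested. In recipient uninjected 22 of 22 clonotypes were productive, the highest share possible. On the maternal side, 9 of 9 were productive in DC control pIUT, whereas DC-depleted pIUT (91.8%) and uninjected (90.3%) had overlapping intervals.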

How the results depend on the processing

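Differences between maternal and recipient libraries passed the threshold under none of the settings run, and those in TRBJ2 share, CDR3 length, bases between V and J, and non-templated bases kept their direction under all of them. With only the libraries of at least 20 TRB clonotypes, 2 maternal and 4 recipient, the test had too few choices to pass. That setting gave -0.370 percentage points for the TRB share of clonotypes and -21.3 for the share without non-templated bases. Leaving out each library in turn gave -22.2 to 1.33 percentage points for the TRB share of clonotypes (reversed only without recipient DC control pIUT), 2.75 to 8.70 for the TRBJ2 share, -3.53 to 0.163 for the productive share (reversed only without recipient uninjected), 0.897 to 2.01 bases for CDR3 length, 1.02 to 2.45 bases for the stretch between V and J and -42.6 to -24.3 percentage points for the share without non-templated bases, with p of at least 0.0571. Weighted by clone count, the productive share differed by 0.0290 percentage points, a reversal. With D bases counted only where identical to the germline D, a setting chosen after seeing the data, the share without non-templated bases differed by -27.3 percentage points (p = 0.0857 by exact permutation). Paired by treatment, with sign changes in 4 pairs, the smallest p possible is 0.125, and CDR3 length, the stretch between V and J, and the share without non-templated bases reached it. Sequences in more than 1 library numbered 295 when matched by CDR3 amino acid sequence with any V and J, against 95, 85 with a clone count of at least 2, and 88 without the clonotypes under 100 reads of recipient uninjected. The latter setting was chosen after seeing the data and kept the direction of all 6 differences (p of 0.143 to 0.714). Libraries with 9 to 22 TRB clonotypes limit every mean over 4.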
